A study of Mus musculus with 18 samples.

Results

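Meis1 and Meis2 are the 2 genes deleted in the mutant embryos of this mouse study, and they are described here by their mRNA level in every library, along somite number and in relation to each other. They were found by symbol among 53465 gene rows of the count table, as ENSMUSG00000020160 (Meis1) and ENSMUSG00000027210 (Meis2), and both passed the filter on low counts in every comparison. The embryos were taken at E9 with 20 to 24 somites. There were 5 control embryos and 4 double knockout (DKO) embryos, in which Meis1 and Meis2 were both deleted conditionally with Delta1Cre. The labels give no further genotype for the controls, no strain, and no exon that the deletion removes. Each embryo gave a posterior library (the axial bud with the newest somites) and an anterior library (the older, somite-bearing axis), so that each piece was represented by 5 control and 4 DKO libraries.

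Meis1 and Meis2 encode homeodomain proteins of the TALE class, which bind DNA together with Pbx and Hox proteins. Hox genes give the vertebral column its identities along the anterior-posterior axis, and Meis proteins act as their cofactors. Retinoic acid, a signalling molecule made in the trunk mesoderm, is known to induce Meis genes. Delta1 (Dll1) is a Notch ligand of the presomitic mesoderm, the tissue from which somites form, so a Cre with its expression pattern reaches somite precursors and their descendants. Other cells in a dissected piece may keep intact alleles. In bulk libraries, fewer cells that express a gene and less of its mRNA per cell cannot be told apart.

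Meis1 lies on the minus strand of chromosome 11 (GRCm38, chr11:18879817-19018985) and Meis2 on the minus strand of chromosome 2 (chr2:115863064-116065839). The Meis1 locus spans 139.2 kb with 10532 bp of exon sequence and 9 annotated transcripts, 4 of them protein-coding with 10 to 13 exons. The Meis2 locus spans 202.8 kb with 12043 bp of exon sequence and 19 annotated transcripts, 6 of them protein-coding with 12 to 13 exons. Because the genes are paralogues, their transcripts were searched for stretches that a single 61-base read could not assign. No 61-base word occurs in both genes, and the most alike pair of coding windows of that length differs at 5 bases. The pair of 122-base coding stretches with the fewest differences, which encodes part of the DNA-binding homeodomain, is shown to make that distance visible, with capitals at the differing bases. The sequences run 5′ to 3′ along the coding strand, from the GENCODE M21 transcripts, and are spliced from 3 exon blocks between chr11:18885646-18941697 (Meis1) and chr2:115868798-116000169 (Meis2), both minus strand.
Meis1: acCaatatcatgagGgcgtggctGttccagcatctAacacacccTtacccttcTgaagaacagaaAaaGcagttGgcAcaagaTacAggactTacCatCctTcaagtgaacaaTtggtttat
Meis2: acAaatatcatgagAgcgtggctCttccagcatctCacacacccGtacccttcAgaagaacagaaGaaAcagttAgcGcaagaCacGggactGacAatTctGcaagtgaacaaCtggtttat
The stretches differ at 17 of 122 bases and are 86.1% identical. They occupy coding positions 850 to 971 of 1395 in Meis1 and 862 to 983 of 1431 in Meis2. Of the 10937 distinct 61-base words of Meis1, 1815 (16.6%) also occur, on either strand, in another annotated gene, mostly in Gm37818 on the same strand (970 words) and in the antisense transcript Gm16140 (838 words), which both lie inside the Meis1 locus. For Meis2 the count is 4 of 12199 words (0.033%). The Meis1 count is therefore less certain than the Meis2 count, although Gm37818 itself was estimated at no more than 35.0 counts in any library.

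The 18 libraries held 12.7 to 38.2 megacounts (M) of expected counts, of which 875 to 3512 were assigned to Meis1 and 1747 to 5581 to Meis2. Counting error alone would give a coefficient of variation of 1.73% to 2.81% in a group, against observed values of 5.27% to 20.5%. The 2 libraries of control embryo 1, labelled female, went against that label in Xist and Y-linked transcripts. By these transcripts, all 5 embryos with 23 or more somites were male and none of the 4 embryos with 22 or fewer, so that sex and late somite number cannot be told apart. The dissection showed in the presomitic mesoderm markers, whose summed level was 123 to 149 CPM in anterior and 261 to 347 CPM in posterior controls. In controls 7 of 8 of these markers were called higher in the posterior piece, where 25.4% of all genes were called in either direction. Single markers differed widely, so the sums do not measure how much presomitic mesoderm a piece holds. From anterior to posterior the log2 change in controls was 4.11 (Ripply2), 4.62 (Mesp2), 5.76 (Hes7), 6.53 (Tbx6) and 9.32 (Msgn1). For Rspo3 it was 1.96, for Dll1 1.05 and for Lfng −0.39. Dll1 alone averaged 64.1 CPM in anterior controls.

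In the anterior piece, both genes were lower in every DKO embryo than in any control. The plot of levels by group shows the individual values. Levels are CPM, the counts a gene takes per megacount of a library, with libraries put on a common scale by the TMM method. In order of somite number (20, 21, 23, 23 and 24; controls 2, 4, 1, 5 and 3), anterior control Meis1 was 113, 127, 121, 130 and 135 CPM. In anterior DKO embryos with 20, 22, 23 and 24 somites (DKO 3, 1, 4 and 2) it was 98.3, 89.8, 108 and 111 CPM. The groups are separated by a gap of only 1.93 CPM, between DKO 2 with 24 somites and control 2 with 20 somites, which are at opposite ends of the stage range. In the same order, anterior Meis2 was 184, 177, 196, 203 and 191 CPM in controls and 139, 130, 146 and 157 CPM in DKO embryos. Its groups are 19.9 CPM apart, with the lowest control (control 4) well above the highest DKO embryo (DKO 2).

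**Figure D1:**
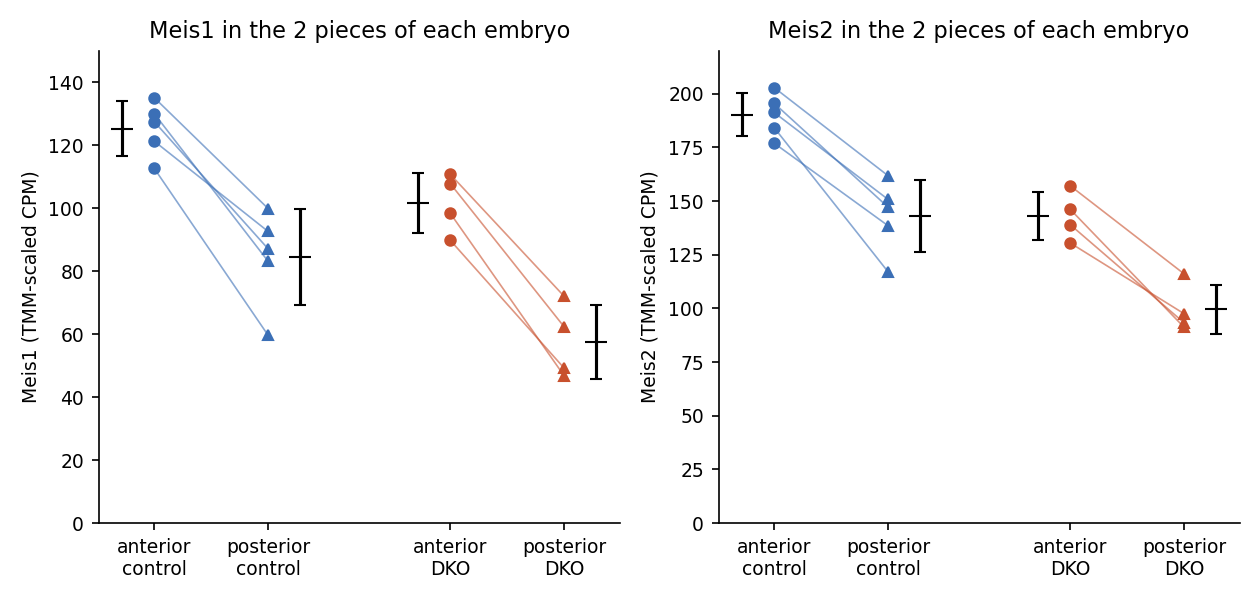
TMM-scaled CPM of Meis1 (left) and Meis2 (right) in each library, with lines joining the anterior (circle) and posterior (triangle) library of 1 embryo; blue is control, red is DKO, and bars beside the points are mean ± SD. Every line descends from anterior to posterior, and the 4 anterior DKO points lie below all 5 anterior control points for both genes.

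The mean of anterior Meis1 was 125 ± 8.65 CPM over the 5 controls (± SD throughout) and 102 ± 9.52 CPM over the 4 DKO embryos, or 81.1% of control (95% confidence interval 73.0% to 90.1%). The log2 change was −0.30 (SE 0.0692, adjusted p = 0.123 by edgeR's quasi-likelihood test with Benjamini-Hochberg adjustment over 15238 genes). Anterior Meis2 averaged 190 ± 10.0 CPM and 143 ± 11.3 CPM, or 75.2% of control (68.6% to 82.5%), a log2 change of −0.41 (SE 0.0608, adjusted p = 0.0522 by edgeR). Meis2 thus missed the threshold of 0.05 narrowly and ranked 9 among all genes by p, while Meis1 ranked 136. Neither member was called, where 0.0394% of all genes were. Both were below an unadjusted p of 0.05, as were 13% of all genes, and both had groups that did not overlap, as did 5.07% of all genes. In the exact two-sided permutation test of each gene's CPM over the 9 embryos, without adjustment, p was 0.0159 for Meis1 and 0.00794 for Meis2, the latter being the smallest possible.

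In the posterior piece, Meis1 overlapped between genotypes and Meis2 did not. With the embryos in the same order of somite number, posterior control Meis1 was 59.6, 87.1, 92.6, 83.1 and 99.9 CPM. In posterior DKO embryos it was 46.7, 49.2, 62.3 and 72.0 CPM. The overlap rests on control 2, the control with the fewest somites, which lay below DKO 4 and DKO 2. Posterior Meis2 was 117, 139, 147, 162 and 151 CPM in controls and 93.3, 97.5, 91.2 and 116 CPM in DKO embryos. Control 2 and DKO 2 were again neighbours, only 1.01 CPM apart.

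For posterior Meis1 the means were 84.5 ± 15.2 CPM (5 controls) and 57.5 ± 11.8 CPM (4 DKO embryos), or 68.1% of control (95% confidence interval 53.6% to 86.7%). Its log2 change was −0.55 (SE 0.158, adjusted p = 0.336 by edgeR over 15936 genes). Posterior Meis2 averaged 143 ± 16.8 CPM and 99.5 ± 11.4 CPM, or 69.5% of control (59.9% to 80.8%), a log2 change of −0.52 (SE 0.0983, adjusted p = 0.196 by edgeR). Neither was called, where 0.0126% of all genes were, and both had an unadjusted p below 0.05, as did 11% of all genes. Of the members 1 of 2 had groups that did not overlap, against 4.29% of all genes. The exact permutation test gave an unadjusted two-sided p of 0.0397 for Meis1 and 0.0159 for Meis2 (n = 5 against 4). The spread of Meis1 between embryos was larger here than in the anterior piece, with coefficients of variation of 18% and 20.5% against 6.90% and 9.36%.

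Which of these 4 differences passed the threshold depended on the model, although the sign did not. With somite number as a covariate, an alternative added after the values were seen, anterior Meis1 fell by 0.31 on the log2 scale (adjusted p = 0.0479 by edgeR) and anterior Meis2 by 0.41 (adjusted p = 0.0147). In that fit posterior Meis1 had an adjusted p of 0.0849 and posterior Meis2 of 0.0544 by edgeR. With embryo as a block over all 18 libraries, the adjusted p by limma-voom was 0.0496 for anterior and 0.0126 for posterior Meis2, and 0.439 for anterior and 0.0772 for posterior Meis1. DESeq2 put all 4 past the threshold, with adjusted p-values of 0.00747 (anterior Meis1), 1.31e-07 (anterior Meis2), 0.0468 (posterior Meis1) and 0.000469 (posterior Meis2). Over all genes, DESeq2 called 296 anterior and 161 posterior, where edgeR called 6 and 2. The edgeR fit with somite number called 84 and 7. Without DKO embryo 2, which had the highest level of both genes in its genotype in both pieces, the adjusted p of anterior Meis2 by edgeR was 0.0211, and without DKO embryo 1 it was 0.214.

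No group was near 0. In the DKO libraries at least 875 reads of Meis1 and 1747 of Meis2 remained, and among genes kept in the filter posterior DKO Meis1, the lowest of the 8 gene-by-group means, stood at the 74.7th percentile of level. Counts over whole genes include reads from every exon, and the sources used here do not name the deleted exons, so these counts do not check whether the remaining mRNA contains them. Of the genes inside the loci and the nearest kept genes beside them, those tested were not called in either piece; 2900018N21Rik, 2610001A08Rik, Gm16140, Gm16141 and Etaa1os were too low to be tested. The nearest kept neighbours of Meis2 are BC052040 on one side (log2 change −0.06 anterior and −0.02 posterior) and the noncoding 2700033N17Rik, 379 bp away on the other (−0.30, SE 0.174, and −0.04, SE 0.225). Beyond these, G630016G05Rik, 1386 bp from Meis2, had −0.52 (SE 0.304) and −0.41 (SE 0.366), and Dph6 had −0.28 (SE 0.110) and −0.21 (SE 0.107). Around Meis1, Etaa1 had −0.08 and −0.05, Spred2 −0.07 and −0.16, and Glns-ps1 0.19 and −0.10. Gm37818, inside Meis1 and sharing reads with it, had −0.25 (SE 0.301) in the anterior and −1.32 (SE 0.417, adjusted p = 0.385 by edgeR) in the posterior piece, with group means of 0.487 to 1.27 CPM.

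Summed over both genes, a measure of their joint mRNA, DKO libraries held 77.5% of the control level in the anterior and 69.1% in the posterior piece. The sum was 297 to 333 CPM in anterior controls and 220 to 268 CPM in anterior DKO embryos, with no overlap (exact permutation p = 0.00794, two-sided, n = 5 against 4). It was 177 to 251 CPM in posterior controls and 140 to 188 CPM in posterior DKO embryos, which overlapped (exact permutation p = 0.0238). Without control 1, 3, 4 or 5 the posterior log2 difference was −0.51, −0.50, −0.53 and −0.50, against −0.53 over all embryos, with an exact permutation p of 0.0571 each in this smaller design.

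A difference in the DKO effect between the pieces was not detected for either gene. The plot of effects shows the posterior minus anterior difference of the DKO effect. This interaction was −0.25 for Meis1 (SE 0.185) and −0.11 for Meis2 (SE 0.122) on the log2 scale, with an adjusted p of 0.999 for each by edgeR. Its 95% confidence interval ran from −0.64 to 0.14 for Meis1 and from −0.37 to 0.14 for Meis2. That fit ignores that both pieces come from the same embryos. With embryo as a block the interaction was −0.25 for Meis1 (SE 0.114, unadjusted p = 0.0483, adjusted p = 0.851 by edgeR) and −0.11 for Meis2 (adjusted p = 0.864). For Meis1 the unblocked range holds an interaction as large as its anterior DKO difference. The interaction called 0% of all genes (0 of 16428 by edgeR, 567 at an unadjusted p below 0.05, and 10 by DESeq2).

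**Figure D2:**
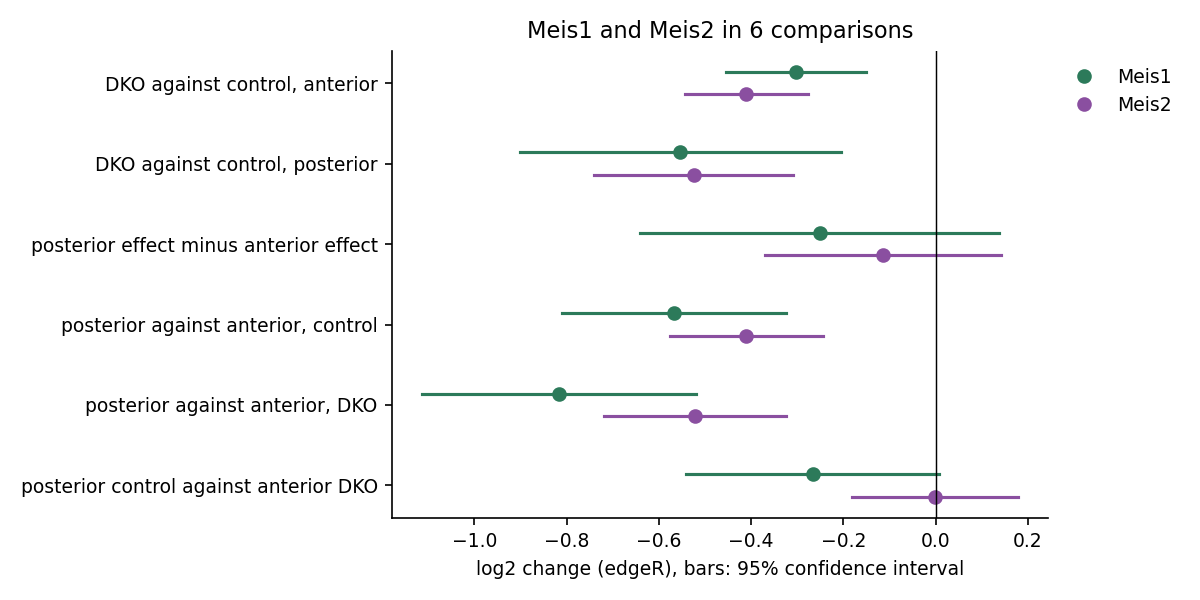
Log2 change of Meis1 (green) and Meis2 (purple) in 6 comparisons fitted with edgeR, with 95% confidence intervals as bars and no change marked by the vertical line. The intervals of the DKO and of the region effects lie below 0, those of the interaction include 0, and that of Meis2 between posterior control and anterior DKO is centred at −0.00.

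Both genes were higher in the anterior than in the posterior piece, in all 9 embryos. Posterior Meis1 was 76.4%, 52.9%, 73.9%, 68.3% and 63.9% of the anterior level in controls 1 to 5, and 54.8%, 65.0%, 47.5% and 57.8% in DKO embryos 1 to 4. Posterior Meis2 was 75.3%, 63.6%, 78.8%, 78.3% and 79.8% of anterior in controls and 74.7%, 73.9%, 67.1% and 62.4% in DKO embryos. Control 2 and DKO 3, the 2 embryos with 20 somites, had the steepest Meis1 difference of their genotypes.

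In controls Meis1 fell by 0.57 on the log2 scale from anterior to posterior (SE 0.112, adjusted p = 0.00226 by edgeR) and Meis2 by 0.41 (SE 0.0763, adjusted p = 0.00156). In DKO embryos Meis1 fell by 0.82 (SE 0.133, adjusted p = 0.00172 by edgeR) and Meis2 by 0.52 (SE 0.0884, adjusted p = 0.00214). Those fits ignore that both pieces come from the same embryos. With embryo as a block each of these differences stayed past the threshold. Both members were called in both genotypes, where 25.4% of all genes were called in controls and 18.5% in DKO embryos. The regional groups did not overlap for either gene in either genotype, as for 20.1% of all genes in controls and 23.5% in DKO embryos. Within embryos, the regional log2 difference of Meis1 averaged −0.59 ± 0.210 (SD, n = 5) in controls and −0.84 ± 0.187 (n = 4) in DKO embryos (exact permutation p = 0.111, two-sided). That of Meis2 averaged −0.42 ± 0.136 and −0.53 ± 0.123 (exact permutation p = 0.214).

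The order of the group levels was the same for both genes at its ends. For Meis1 it ran from anterior control over anterior DKO and posterior control to posterior DKO, at 125, 102, 84.5 and 57.5 CPM. For Meis2 the 2 middle groups were level, at 143 CPM in both anterior DKO and posterior control. Posterior control against anterior DKO gave a log2 difference of −0.27 for Meis1 (SE 0.130, adjusted p = 0.148 by edgeR) and −0.00 for Meis2 (SE 0.0860, adjusted p = 0.995, 95% confidence interval −0.18 to 0.18). Neither member was called in this comparison, where 26.9% of all genes were. The first and last steps of the order are the DKO comparisons above, which missed the threshold.

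The plot against somite number shows the levels by stage, and no slope of either gene passed the threshold. Fitted within genotypes, the log2 change per somite was 0.15 for posterior Meis1 (SE 0.0310, or 110.9% of the level per added somite, adjusted p = 0.193 by edgeR) and 0.08 for posterior Meis2 (SE 0.0249, adjusted p = 0.50). In the anterior piece it was 0.05 for Meis1 (SE 0.0189, adjusted p = 0.327) and 0.04 for Meis2 (SE 0.0174, adjusted p = 0.407, both by edgeR). No member was called, where 0.0328% of all genes were in the anterior and 0.0126% in the posterior piece. Posterior Meis1 ranked 50 of 15936 genes by p, and DESeq2 put it past the threshold (adjusted p = 0.00412).

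Slopes within each genotype are descriptions of 4 or 5 embryos, and their difference between genotypes was not tested. Posterior Meis1 gained 10.6% per somite in the 5 controls and 11.6% in the 4 DKO embryos, and posterior Meis2 gained 6.65% and 4.13%. Anterior Meis1 gained 3.32% and 3.47%, and anterior Meis2 2.25% and 3.11%. With sex label as a covariate, a label that the transcripts of control 1 contradict, the log2 slopes were 0.0061 (Meis1) and 0.013 (Meis2) in the anterior and 0.16 and 0.08 in the posterior piece. The part of sex in the anterior slopes was not tested further.

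**Figure D3:**
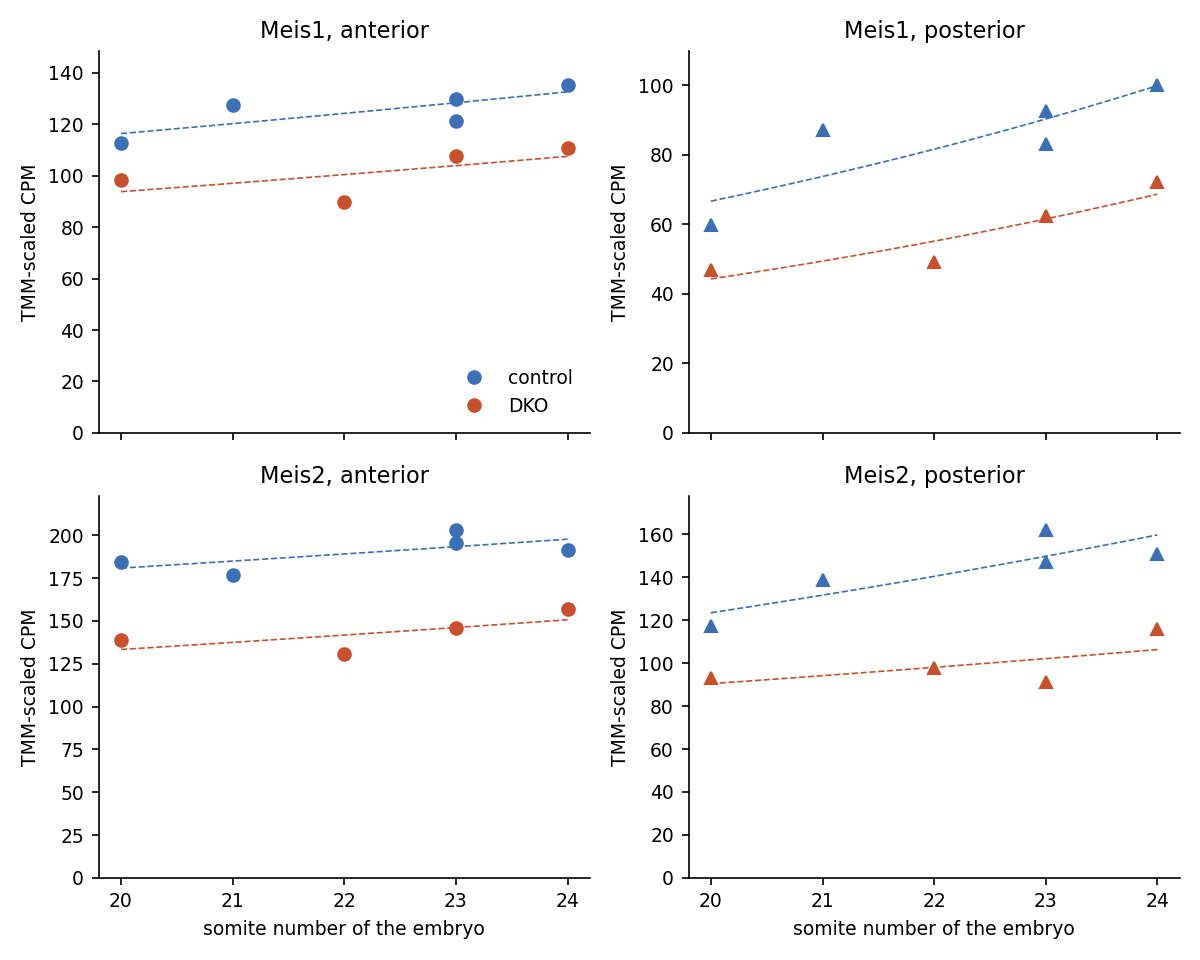
TMM-scaled CPM of Meis1 (top) and Meis2 (bottom) against the somite number of the embryo, in anterior (left) and posterior (right) libraries of control (blue) and DKO (red) embryos; dashed lines are least-squares fits of log2 CPM within a genotype. At 20, 23 and 24 somites, where both genotypes are present, each DKO point lies below the control points.

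Somite numbers 20, 23 and 24 occurred in both genotypes, with 1, 2 and 1 controls and 1 DKO embryo each. At each of these, in each piece and for each gene, the DKO embryo was below every control of its stage, in 12 of 12 comparisons. These share embryos and are not 12 independent observations. For anterior Meis1 and for Meis2 in both pieces the outcome follows from the separation of the groups given above. Only the 3 comparisons of posterior Meis1 could have gone otherwise. Stage-matched DKO levels were 82.0% to 87.3% of control for anterior Meis1, 73.4% to 82.1% for anterior Meis2, 70.9% to 78.3% for posterior Meis1 and 59.0% to 79.7% for posterior Meis2.

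The proportion of Meis1 to Meis2 was compared within libraries. Per kilobase of exon, which makes the genes comparable, anterior controls had 11.9 CPM of Meis1 and 15.8 CPM of Meis2, and posterior DKO libraries had 5.46 and 8.26 CPM. The ratio of Meis1 to Meis2 CPM per library, free of library scaling, was 0.620, 0.612, 0.706, 0.720 and 0.641 in anterior controls 1 to 5. In anterior DKO embryos 1 to 4 it was 0.688, 0.705, 0.708 and 0.737, with 3 values inside the control range and DKO 4 above it. The log2 ratio differed between genotypes by 0.11 in the anterior piece (exact permutation p = 0.127, two-sided, n = 5 against 4). In the posterior piece, where the ratio was 0.629, 0.509, 0.662, 0.629 and 0.514 in controls and 0.504, 0.620, 0.501 and 0.683 in DKO embryos, it differed by −0.03 (exact permutation p = 0.770).

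Between the pieces, the proportion shifted towards Meis2 posteriorly. The ratio was lower in the posterior than in the anterior library in 8 of 9 embryos, with control 1 as the exception. The within-embryo difference of the log2 ratio averaged −0.23 ± 0.169 (SD, n = 9) and ran from −0.50 to 0.02 (exact sign-flip permutation p = 0.00781, two-sided, the smallest possible being 0.00391). This comparison was added after the ratios had been seen.

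**Figure D4:**
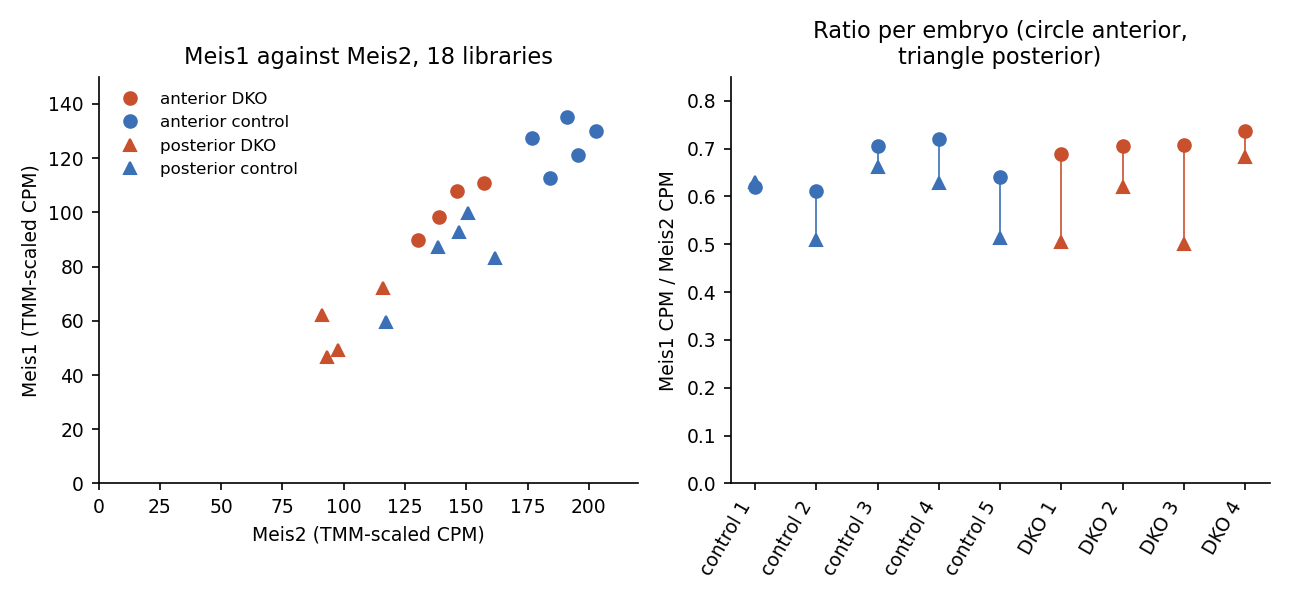
Left, Meis1 against Meis2 in TMM-scaled CPM over 18 libraries (circle anterior, triangle posterior, blue control, red DKO). Right, the ratio of Meis1 to Meis2 CPM in both libraries of each embryo; the triangle lies below the circle in all embryos except control 1.

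The deviations of single embryos from their group were compared between the genes and between the pieces, and none of 4 such relations passed adjustment. Deviations of log2 CPM from the genotype mean were compared over the 9 embryos, with exact permutation of embryos within genotypes. Meis1 and Meis2 deviations had a Pearson r of 0.69 in the anterior piece (Spearman's rho 0.67, exact permutation p = 0.0792 and 0.0910) and 0.74 in the posterior piece (rho 0.67, p = 0.0497 and 0.0844 by exact permutation). Anterior and posterior deviations had an r of 0.84 for Meis1 (rho 0.75, exact permutation p = 0.0188 and 0.0458) and 0.64 for Meis2 (rho 0.62, exact permutation p = 0.0875 and 0.124). Adjusted by Benjamini-Hochberg over the 4 relations, the exact permutation p of r was 0.0750 for Meis1 between pieces and 0.0875 for the other 3. The values for rho were 0.121 for 3 relations and 0.124 for Meis2 between pieces.

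Without the 2 embryos farthest from the median on the first measure, r was 0.45 for Meis1 with Meis2 in the anterior piece (without DKO 1 and control 2) and 0.40 in the posterior piece (without DKO 3 and control 2). Their exact permutation p was then 0.361 and 0.639, and leaving out the extremes also narrows the range. For Meis1 between pieces r was then 0.75 (without DKO 1 and control 2) and for Meis2 0.63 (without DKO 1 and DKO 2), with an exact permutation p of 0.132 and 0.225, so none of the 4 relations was below 0.05 in this check. The part of somite number in these deviations was not tested.

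The genes whose level was most like that of each member over the 18 libraries were ranked among 11811 protein-coding genes with a mean of at least 50 counts. The correlations carry the region and genotype differences that all libraries share and are given as a description. For Meis1 the highest Pearson r of log2 CPM was that of Col23a1 (0.97), followed by Itga9 (0.97), Aff3 (0.96), Fap (0.96) and Fam110b (0.95). Col23a1 encodes a transmembrane collagen and Itga9 an integrin subunit. Meis2 ranked 14 for Meis1 with an r of 0.93. For Meis2 the highest was Meis1 itself (0.93), and among the next were Adgra2 (0.93), Hdgfl3 (0.93) and Itga9 (0.92).

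After removal of the 4 group means the lists were different. Meis1 was then most like Rab3il1 (r = 0.94), Myog (0.92), Col23a1 (0.92), Pcolce (0.91) and Col26a1 (0.89). Myog encodes the muscle differentiation factor myogenin, and Pcolce an enhancer of procollagen processing. Posterior Myog was low, at 1.68 ± 1.26 CPM in controls and 1.51 ± 2.28 CPM in DKO embryos. Each embryo enters these correlations with 2 libraries. Meis2 was most like Zfhx4 (0.90), Tmem132e (0.88), Pag1 (0.88), Foxp2 (0.88) and Lrig1 (0.88). On the other member's list of 11811 genes, Meis2 ranked 154 and Meis1 ranked 137 (r = 0.73).

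The other TALE genes were not called in either DKO comparison (0 of 9 in each by edgeR, where 0.0394% and 0.0126% of all genes were). An unadjusted p below 0.05 was found for 3 of 9 in the anterior and 1 of 9 in the posterior piece, against 13% and 11% of all genes. Their median log2 change was −0.01 anterior and −0.04 posterior, against 0.00014 and 0.01 over all genes. The remaining Meis gene, Meis3, was 52.4 ± 3.94 and 56.9 ± 9.67 CPM in anterior, and 40.9 ± 2.04 and 44.7 ± 6.65 CPM in posterior control and DKO embryos.

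Pbx2 had a level per kilobase of exon of 69.8 CPM per kb in anterior controls, Tgif2 of 30.9 and Meis3 of 16.5. Pknox2 (6.39), Pbx3 (9.83), Tgif1 (7.40) and Pknox1 (4.48) lay lower, and Pbx4 at 1.40 CPM per kb. Between regions in controls, Meis3, Pbx2 and Pbx3 fell towards posterior by 0.36, 0.25 and 0.92 on the log2 scale, and Pknox2 and Tgif1 rose by 0.24 and 0.72 (adjusted p from 1.53e-06 to 0.00615 by edgeR). In DKO embryos Pbx2 and Pbx3 fell by 0.22 and 1.0 and Pknox2 and Tgif1 rose by 0.23 and 0.88 (edgeR). Meis3 differed there by −0.35 without passing the threshold (adjusted p = 0.123 by edgeR).

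Of 18 genes of the retinoic acid pathway, 16 were tested in the anterior and 18 in the posterior piece, and 0 were called in either DKO comparison by edgeR, where 0.0394% and 0.0126% of all genes were. In each piece 4 had an unadjusted p below 0.05, against 13% and 11% of all genes. Their median log2 change was −0.03 anterior and 0.07 posterior. Aldh1a2, which encodes the main retinoic acid synthesizing enzyme of the trunk, had −0.97 in the anterior piece (SE 0.170, adjusted p = 0.0641 by edgeR). Cyp26b1, which encodes a retinoic acid degrading enzyme, had −1.03 (SE 0.182, adjusted p = 0.0659 by edgeR). In the posterior piece they had −0.27 (SE 0.155) and −0.46 (SE 0.285). Both were named after their values were seen. Between regions in controls 3 of 17 genes tested rose and 7 fell towards posterior (edgeR), where 25.4% of all genes were called. The risen ones were Cyp26a1, which degrades retinoic acid (log2 change 3.68), Aldh1a3 (3.23) and the receptor Rarg (1.87). Among the fallen ones were Cyp26b1 (−2.09), the retinoic acid binding protein genes Crabp1 (−2.17) and Crabp2 (−1.24), and the receptor Rarb (−1.57).

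Dll1, whose expression pattern the Cre is named for, was 64.1 ± 3.41 CPM in anterior and 133 ± 16.2 CPM in posterior controls, and 85.9 ± 12.2 and 147 ± 21.2 CPM in the DKO groups. Its log2 change in DKO was 0.42 anterior (SE 0.0841, adjusted p = 0.0881 by edgeR) and 0.14 posterior (SE 0.107, adjusted p = 0.586).

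Markers of other tissues were summed in the same libraries, as the plot of marker sums shows, and 0 genes of these lists were called between genotypes by edgeR (0.0394% of all genes in the anterior and 0.0126% in the posterior piece). Summed levels of the 10 neural tube markers were 613 to 766 CPM in anterior controls and 801 to 879 CPM in anterior DKO embryos. All 10 were higher there, 8 of them at an unadjusted p below 0.05 (edgeR), where 50% of all genes were higher and 13% were below that p. In the posterior piece all 10 were also higher, 2 of them at an unadjusted p below 0.05 (11% of all genes, edgeR), and the sums overlapped (293 to 421 and 353 to 477 CPM). The 6 neural crest markers summed to 121 to 141 CPM in anterior controls and 141 to 181 CPM in anterior DKO embryos. In the posterior piece they summed to 42.9 to 73.7 and 51.8 to 87.2 CPM. The sums overlapped in both pieces, anteriorly by control 1 (141.1 CPM) and DKO 2 (140.9 CPM). All 6 were higher in anterior DKO embryos, 5 of them at an unadjusted p below 0.05 (edgeR), against 50% and 13% of all genes. Posteriorly 5 of 5 tested were higher and 0 below that p, against 52.4% and 11% of all genes. The summed level of the 10 markers of somite derivatives ran the other way. In the anterior piece it was 387 to 456 CPM in controls and 274 to 363 CPM in DKO embryos. In the posterior piece the sums overlapped, at 423 to 571 against 231 to 427 CPM. Of these markers 9 of 10 were lower anteriorly, with Uncx higher (log2 change 0.32), and 10 of 10 posteriorly. An unadjusted p below 0.05 was found for 7 (Uncx among them) and 5 of them (edgeR), against 13% and 11% of all genes.

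The 6 intermediate mesoderm markers summed to 74.7 to 92.0 CPM in posterior controls and 36.0 to 58.9 CPM in posterior DKO embryos. In the anterior piece they summed to 10.7 to 27.5 and 7.15 to 17.3 CPM, with overlap. All 6 were lower in DKO embryos in both pieces, 3 of them anteriorly and 6 posteriorly at an unadjusted p below 0.05 (edgeR). Over all genes, 50% were higher in DKO in the anterior and 52.4% in the posterior piece. An unadjusted p below 0.05 was found for 13% and 11% of all genes by edgeR, and these shares apply to each list of this paragraph. The 8 lateral plate and limb markers summed to 72.9 to 154 CPM in anterior controls (72.9 to 81.5 CPM without control 3) and 45.9 to 64.9 CPM in anterior DKO embryos, and overlapped posteriorly (119 to 178 and 104 to 166 CPM). The 7 surface ectoderm markers summed to 172 to 234 CPM in posterior controls and 242 to 305 CPM in posterior DKO embryos, and overlapped in the anterior piece (88.3 to 171 and 98.9 to 165 CPM). The 7 primitive erythroid markers were all lower in anterior DKO embryos (962 to 4642 CPM in controls, 1209 to 2023 CPM in DKO) and all higher in posterior ones (1364 to 2209 and 1642 to 3392 CPM), with overlap in both and 0 and 5 of 7 at an unadjusted p below 0.05 (edgeR), against 13% and 11% of all genes. The 6 gut endoderm markers summed to 54.7 to 90.0 and 75.9 to 106 CPM in the posterior piece, 5 of 6 higher in DKO and 4 of 6 at an unadjusted p below 0.05 (edgeR), where 52.4% of all genes were higher and 11% below that p. Of the 8 endothelial markers, 7 were lower anteriorly (287 to 330 and 245 to 314 CPM) and 8 posteriorly (175 to 308 and 172 to 260 CPM). Their sums overlapped in both pieces, and 2 and 0 of 8 had an unadjusted p below 0.05 (edgeR), against 13% and 11% of all genes. The presomitic mesoderm markers summed to 123 to 149 and 147 to 180 CPM anteriorly, where 3 of 8 were tested, Dll1 and Lfng being higher in DKO (log2 change 0.42 and 0.25) and Rspo3 lower (−0.40), and to 261 to 347 and 274 to 409 CPM posteriorly. In all the lists, 1 neural crest marker was at 0 in all posterior control libraries and 1 heart marker in all posterior DKO libraries. The part of tissue composition in the DKO difference of Meis1 and Meis2 was not tested. Between regions, all 10 neural tube markers fell towards posterior in both genotypes (edgeR, 25.4% of all genes called in controls and 18.5% in DKO), along with Meis1 and Meis2, and the part of this in the regional difference was not tested either.

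**Figure D5:**
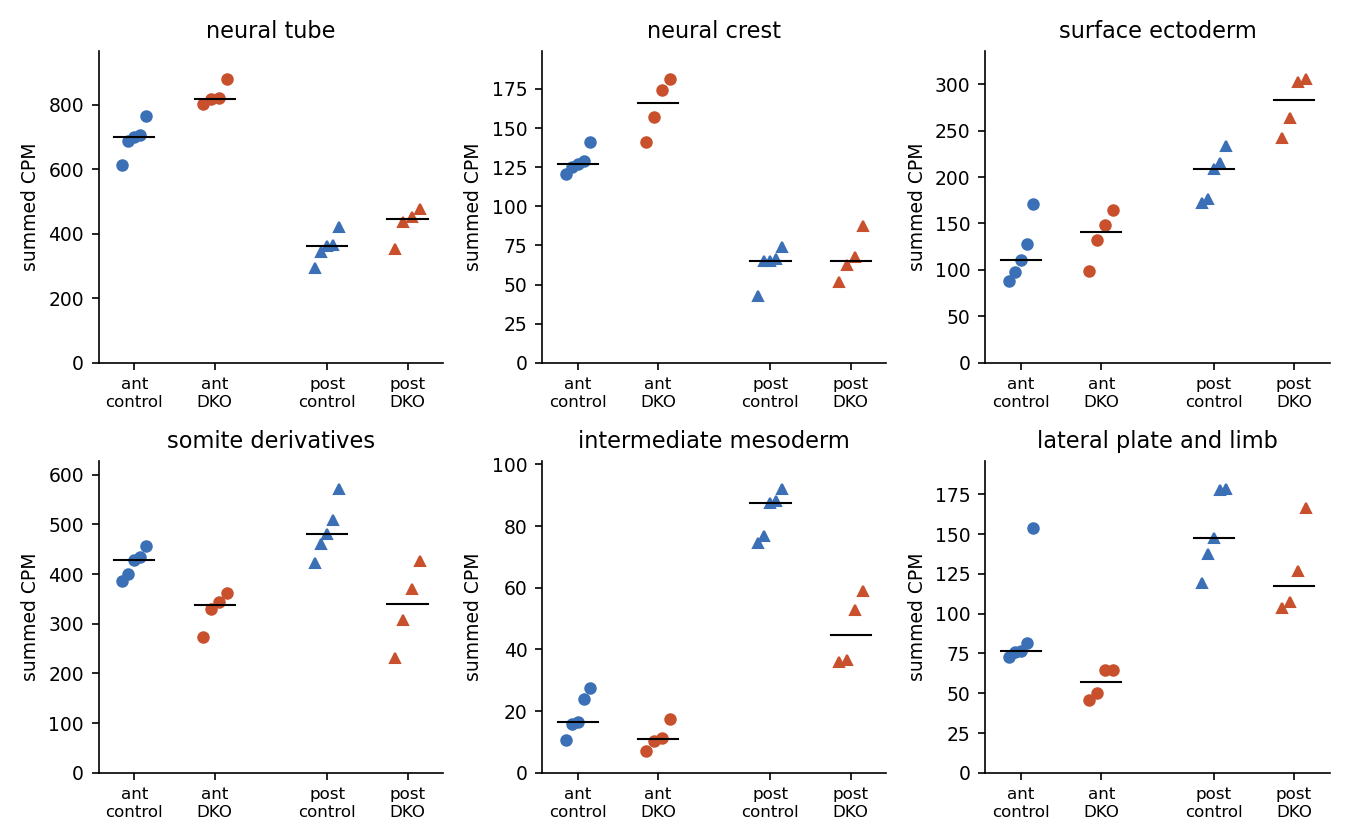
Summed TMM-scaled CPM of the markers of 6 tissues in each library (ant, anterior; post, posterior; blue control, red DKO), with the median of each group as a line. Neural tube sums of the 4 anterior DKO libraries (801 to 879) lie above the controls (613 to 766), and posterior intermediate mesoderm sums of DKO embryos (36.0 to 58.9) lie below those of controls (74.7 to 92.0).

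Leaving out control embryo 1, whose sex label did not match, kept each sign. Without it the DKO difference was −0.31 (anterior Meis1), −0.40 (anterior Meis2), −0.52 (posterior Meis1) and −0.51 (posterior Meis2) on the log2 scale. The slopes per somite were then 0.05, 0.04, 0.15 and 0.08 in the same order. The regional difference in controls was −0.61 for Meis1 and −0.41 for Meis2.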

How the data were processed

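Poly(A) RNA of 18 libraries from 9 embryos was sequenced as single 61-base reads, per the labels' protocols. The authors deposited RSEM expected counts per Ensembl gene on GRCm38, not scaled between libraries; CASAVA and cutadapt are also named in the submitters' processing notes. The aligner, versions and strand setting are not given in the sources used here. Of 53465 gene rows, 53274 matched the GENCODE M21 annotation. The rows hold estimates rather than tallies, so counts of overlapping genes are uncertain.

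Expected counts were rounded and analysed with edgeR 4.0.16 in R 4.3.3 (filterByExpr with minimum count 10 and minimum total 15, TMM scaling, glmQLFit and glmQLFTest, Benjamini-Hochberg threshold 0.05). Fits used the libraries of the comparison (9 per region, 10 control or 8 DKO). The interaction and the comparison of posterior control with anterior DKO used 18. CPM and log2 CPM (prior count 2) came from 1 scaling over 18 libraries and 16428 genes. Likeness was ranked over genes averaging 50 or more counts, and genes among the 5 highest are named. The values of 1 gene that these rules name are not reported here. Confidence intervals are at 95%. Alternatives used DESeq2 1.42.0 and limma-voom (limma 3.58.1), among others given in the closing section. The fits were tested on simulated counts.

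Each anterior library was matched to the posterior one with the same somite number, sex label and genotype. With group means removed, the 2 libraries of 1 embryo correlated at 0.256 to 0.570 over genes (9 pairs) and libraries of different embryos of a genotype at −0.283 to 0.0916, so embryo was a block in alternatives. Nothing in the labels states whether embryos came from different litters, and p-values measure the spread between these embryos. The members, gene lists, naming rules and tests were chosen with earlier results of these data known. Reads carry no molecular identifiers, so counting errors cover read sampling alone.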

Additional observations from a re-analysis of the deposited data

How the results depend on the processing

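Over 25 results, 349 alternative values were computed, of which 329 stayed on the side of the threshold of the value reported, 16 passed it where that one did not, 4 no longer passed, and 0 reversed a called value. All 76 alternative values of the 4 DKO differences were below 0, from −0.68 to −0.25 on the log2 scale.

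Differences that passed the threshold only under an alternative were as follows, in log2 units. With DESeq2 they were anterior Meis1 (−0.30), anterior Meis2 (−0.41), posterior Meis1 (−0.56), posterior Meis2 (−0.53) and the posterior Meis1 slope (0.15 per somite). Anterior Meis2 also passed with limma-voom (−0.41), with no filter on low counts (−0.40) and with a filter at a mean of 50 counts (−0.41). With sex label and somite number as covariates anterior Meis1 (−0.32) and Meis2 (−0.42) passed, and with somite number alone −0.31 and −0.41. With all 18 libraries in the fit posterior Meis2 passed (−0.52). With embryo as a replicate block (random effect) anterior Meis2 (−0.41) and posterior Meis2 (−0.51) passed. That fit also changes the tool and the libraries, and the same genes passed with limma-voom or with all 18 libraries and no block. With the block no other call changed. Without DKO embryo 2 anterior Meis2 passed (−0.46). The cause of these shifts was not tested.

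Leaving out 1 embryo at a time gave −0.34 to −0.25 and −0.46 to −0.37 for anterior Meis1 and Meis2, −0.68 to −0.47 and −0.60 to −0.48 posteriorly, and −0.62 to −0.48 for the posterior log2 sum of both genes.

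The number of genes called against control was 6 anterior and 2 posterior by edgeR and 296 and 161 by DESeq2. Somite number as a covariate gave 84 and 7. Adjusted p-values over the alternatives ran from 0.00747 to 0.496 (anterior Meis1), 1.31e-07 to 0.214 (anterior Meis2), 0.0468 to 0.580 (posterior Meis1) and 0.000469 to 0.534 (posterior Meis2). Counting error was below the spread between embryos for both genes, and the effect of depth on the calls was not tested.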
